A study of Mus musculus with 16 samples.

Results

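The 214 promoter fragments of mouse chromosome 2 that carry an olfactory receptor gene were followed through promoter-capture Hi-C, an assay that ligates DNA ends held together in fixed nuclei and pulls down the ligation products of chosen promoter fragments, called baits. Members were the baits on chromosome 2 whose gene symbol starts with Olfr and a digit, with pseudogene symbols (-ps) left out. They make up 214 of the 20017 baits of the deposited table. Another 569 receptor baits lie on other chromosomes, and 1526 other baits lie on chromosome 2.

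The study compared mouse epiblast-like cells (EpiLC, day 2) with the embryonic stem cells they came from (ESC, day 0, kept in 2i and Lif), in 4 lines. DNMT_KO cells lack the DNA methyltransferases Dnmt1, Dnmt3a and Dnmt3b, which write DNA methylation, and DNMT_WT is the line they were made from. TET_KO cells lack Tet1, Tet2 and Tet3, which oxidise methylated cytosine and start its removal, and TET_WT is their parental line. The labels hold 16 samples, 2 in each of 8 groups, but the table gives 1 score per contact and group, so the 8 groups are 8 columns without an error of their own. The 4 lines served as replicates of the stage, although each knock-out shares its origin with its parent, so that p-values measure the spread between these columns only. The labels do not say how many clones stand behind a knock-out, and contact scores hold no expression markers with which to check cell identity.

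Olfactory receptors are G protein-coupled receptors that detect odorants at the surface of olfactory sensory neurons. Their genes stand in large clusters on many chromosomes, and each mature sensory neuron transcribes a single receptor gene from a single allele. In those neurons the silent clusters are packed in heterochromatin, while receptor enhancers bound by Lhx2, Ldb1 and Ebf factors gather around the active gene. Neither ESC nor EpiLC is a cell type known to use these receptors for smell.

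The receptors that the contact results turn on have promoter sequence of a kind shown by 4 examples, the ends of the 2 single contacts with the largest falls reported further on. Each is the RefSeq GRCm38.p6 window from 250 bases before to 50 bases after the annotated transcript start, 5′ to 3′ on the gene's strand, and capitals mark CpG, the dinucleotide that DNA methyltransferases act on. The Olfr1115 window lies at chr2:87251590-87251889 on the plus strand. Its contact partner Olfr1135 lies at chr2:87672316-87672615 on the minus strand. The Olfr1243 window is at chr2:89528359-89528658 on the minus strand, and that of its partner Olfr1214 is at chr2:88988151-88988450, also on the minus strand.
Olfr1115: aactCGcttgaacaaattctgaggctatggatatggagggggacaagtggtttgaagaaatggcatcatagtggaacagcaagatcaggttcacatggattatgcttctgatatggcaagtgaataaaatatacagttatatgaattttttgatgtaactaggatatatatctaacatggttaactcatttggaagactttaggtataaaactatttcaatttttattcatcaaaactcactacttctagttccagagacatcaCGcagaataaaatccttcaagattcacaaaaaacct
Olfr1135: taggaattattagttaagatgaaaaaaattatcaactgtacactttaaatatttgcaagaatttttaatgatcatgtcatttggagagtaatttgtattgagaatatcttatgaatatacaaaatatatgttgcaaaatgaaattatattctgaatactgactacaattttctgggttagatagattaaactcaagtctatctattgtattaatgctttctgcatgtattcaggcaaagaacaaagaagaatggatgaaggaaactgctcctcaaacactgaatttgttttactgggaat
Olfr1243: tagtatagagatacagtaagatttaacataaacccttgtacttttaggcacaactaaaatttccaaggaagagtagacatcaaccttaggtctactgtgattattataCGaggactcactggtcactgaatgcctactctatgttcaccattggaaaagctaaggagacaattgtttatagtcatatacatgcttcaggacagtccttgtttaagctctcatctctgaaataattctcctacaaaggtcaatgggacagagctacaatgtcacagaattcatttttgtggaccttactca
Olfr1214: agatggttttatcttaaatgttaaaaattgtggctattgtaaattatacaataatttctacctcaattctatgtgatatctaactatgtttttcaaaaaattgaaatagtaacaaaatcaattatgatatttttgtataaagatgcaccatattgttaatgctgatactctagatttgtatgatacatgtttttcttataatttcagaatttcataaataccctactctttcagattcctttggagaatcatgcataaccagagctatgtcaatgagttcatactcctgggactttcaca

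These windows hold 2, 0, 1 and 0 CpG in the order printed. Of the 214 receptors, 178 had a RefSeq window by symbol, and 169 of these windows overlapped the bait fragment. The 169 receptor windows held a median of 1 CpG (interquartile range 0 to 1, highest 7), against 7 (3 to 21) in the windows of all 27025 genes of the table. No CpG was present in 67 receptor windows (39.6%), against 5.78% of all windows, and at most 2 CpG in 154 (91.1%), against 23.8%. Median GC content was 32.7% in receptor windows and 52.7% in all windows. TAATTA, the core that homeodomain proteins such as Lhx2 bind, was found in 25.4% of receptor windows, against 5.31% of all windows, with both strands searched. TAATGA was found in 32.5% of receptor windows, against 9.99%, and CCCNNGGG, a match to the core that Ebf factors bind, in 2.37%, against 13.4%. The receptor windows are AT-rich, so these shares differ along with base composition, whose part was not tested. In 135 of the 169 receptor windows (79.9%) an ATG stood at the annotated transcript start, against 6.75% of all windows. Most of these annotated transcripts thus begin at an ATG, and their windows may not be the true promoter.

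The receptor baits fell into 3 clusters when neighbours more than 1 Mb apart were separated. Cluster 1 holds 25 baits from Olfr338 to Olfr368 (GRCm38, chr2:36371617-37334021), with 1 bait of another kind in its span, the pseudogene Olfr364-ps1. Cluster 2 holds 164 baits from Olfr987 to Olfr1270 over 4817 kb (chr2:85336556-90153180), with 8 other baits, among them Pramel7. Cluster 3 holds 25 baits from Olfr1275 to Olfr1318 (chr2:111230235-112155937), with 2 other baits. Every one of the 214 symbols matched a RefSeq gene on chromosome 2, and 208 of these genes lay within 2 kb of the bait fragment.

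Many contacts of these receptors were with each other. The table lists 1345 contacts of the 214 baits, each with a score of 5 or more in at least 1 column, a score being CHiCAGO's weighted measure of how far the reads of a fragment pair exceed the background for that bait and distance. Of these contacts, 573 (42.6%) ended on another receptor fragment of chromosome 2, 22 on a bait of another kind and 750 on a fragment without a bait. A fragment with a bait was at the other end of 44.2% of receptor contacts, against 24.9% for receptors of other chromosomes, 8.26% for the other baits of chromosome 2 and 9.12% for all baits. Nearly all baits inside the clusters are receptors, and the part of position in this share was not tested. The contacts stayed inside their own cluster in 1212 cases (90.1%), 131 reached chromosome 2 sequence outside the clusters, 2 reached another chromosome, and 0 joined 2 of the 3 receptor clusters.

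The clusters differed in these shares. In cluster 2, 489 of 947 contacts (51.6%) joined 2 receptors and 96.6% stayed in the cluster. In cluster 3, 51 of 128 (39.8%) joined 2 receptors, with 62.5% staying inside. In cluster 1, 33 of 270 (12.2%) did, with 80.4% staying inside. Receptor contacts spanned a median of 585 kb (interquartile range 366 to 892 kb), against 391 kb for receptors of other chromosomes, 268 kb for the other baits of chromosome 2 and 275 kb for all baits. A receptor bait had a median of 5 listed contacts, against 8 for all baits. Bait fragments were of like size, with medians of 5.29 kb for receptors and 5.84 kb for all baits. How reads that match several near-identical receptor genes were counted is not stated in the labels, and values of close copies carry that uncertainty.

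Contacts of receptor baits were fewer in EpiLC than in ESC in all 4 lines. Counting contacts at a score of 5 or more, there were 292 in DNMT_KO, 278 in DNMT_WT, 227 in TET_KO and 226 in TET_WT EpiLC, against 423 in DNMT_KO, 383 in DNMT_WT, 429 in TET_KO and 348 in TET_WT ESC. The highest EpiLC column lay below the lowest ESC column. The mean was 256 ± 34.3 in EpiLC and 396 ± 37.8 in ESC (SD, n = 4 lines each), a ratio of 0.646, with a two-sided exact permutation p of 0.0286 over the 70 splits of 8 columns. That is the smallest p these splits can give, and they ignore the pairing of columns by line. Benjamini-Hochberg adjustment gave 0.0471 over the 28 overlapping count comparisons and 0.0527 over the first 24 of them, so the side of 0.05 depends on how many are counted. The cells were measured in bulk, so a contact present in fewer cells and a weaker contact in each cell cannot be told apart.

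The fall was found both in contacts between receptors and in contacts with other sequence. Receptor to receptor contacts numbered 169, 142, 119 and 126 in DNMT_KO, DNMT_WT, TET_KO and TET_WT EpiLC, against 268, 238, 204 and 200 in the same lines as ESC. The columns did not overlap, with means of 139 ± 22.2 in EpiLC and 228 ± 31.9 in ESC (SD, n = 4 lines each), a ratio of 0.611, and the exact permutation p was 0.0286. Within lines this ratio was 0.631 in DNMT_KO, 0.597 in DNMT_WT, 0.583 in TET_KO and 0.63 in TET_WT, a narrow range. Contacts with all other fragments numbered 123, 136, 108 and 100 in EpiLC of these lines, against 155, 145, 225 and 148 in ESC, a ratio of 0.694 with the same exact permutation p of 0.0286. This ratio was 0.938 in DNMT_WT and 0.480 in TET_KO, and without TET_KO, whose ESC column was the highest, the mean difference of -51.5 became -29.7 (ratio 0.801). The share of receptor contacts that joined 2 receptors was 54.3% in EpiLC and 57.6% in ESC, a difference within the spread of the columns (exact permutation p = 0.4). The number of receptor baits with at least 1 contact at 5 or more was 115, 127, 101 and 100 in EpiLC, against 147, 133, 141 and 147 in ESC, without overlap (exact permutation p = 0.0286).

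**Figure D1:**
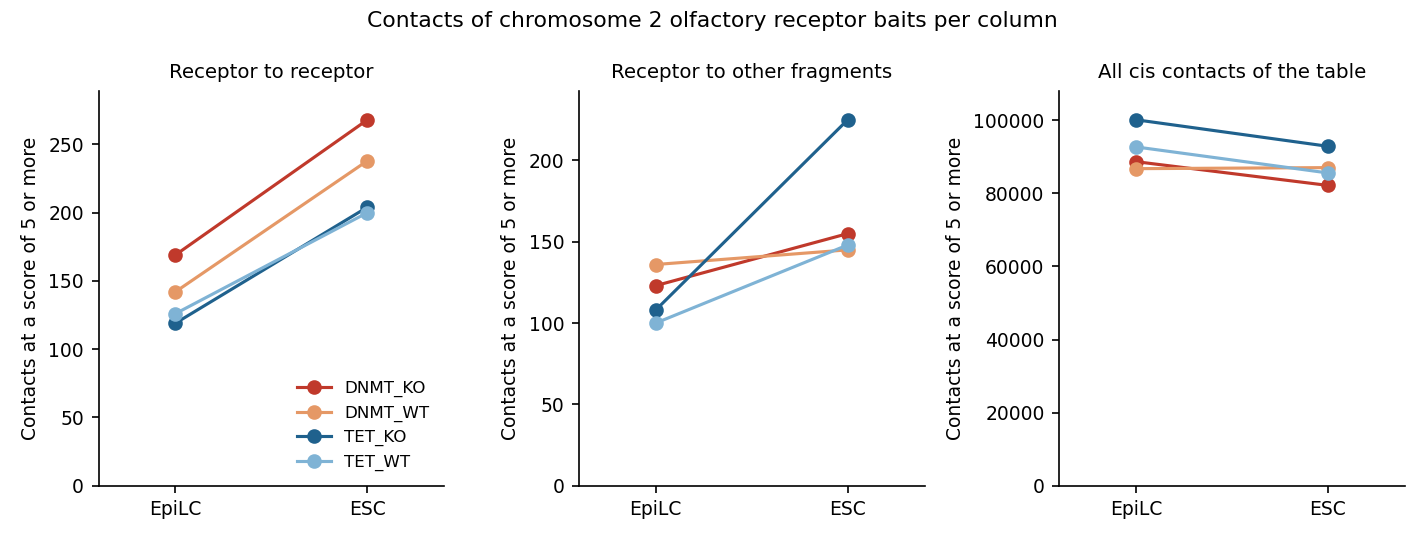
Contacts at a score of 5 or more per column (vertical axes from 0), for contacts between 2 receptor baits of chromosome 2, for their contacts with other fragments and for all contacts within a chromosome (cis) in the table; each line joins the EpiLC and ESC columns of 1 cell line. Both receptor counts were lower in EpiLC in 4 of 4 lines, with receptor to receptor means of 139 in EpiLC and 228 in ESC, while the count of the whole table was lower in EpiLC in 1 of 4.

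Over the whole table the mean was on the other side. All contacts within a chromosome numbered on average 1.06 times as many in EpiLC as in ESC (exact permutation p = 0.229), and the other baits of chromosome 2 had 0.948 times as many (exact permutation p = 0.514). As a share of all such contacts, receptor contacts of chromosome 2 were 0.280% in EpiLC and 0.455% in ESC, and as a share of those on chromosome 2 they were 4.45% in EpiLC and 6.30% in ESC, both without overlap of the columns (exact permutation p = 0.0286 each). Receptor baits of other chromosomes also had fewer contacts, with 1266, 1378, 1374 and 1258 in DNMT_KO, DNMT_WT, TET_KO and TET_WT EpiLC, against 1801, 1484, 1632 and 1409 in ESC, a ratio of 0.834 (exact permutation p = 0.0286), or 0.886 without DNMT_KO. For each 100 contacts of those receptors, the receptors of chromosome 2 had 19.4 ± 2.88 in EpiLC and 25 ± 1.21 in ESC (SD, n = 4 lines each, exact permutation p = 0.0286), so the fall was larger on chromosome 2. In DNMT_KO, however, this measure was 23.1 in EpiLC and 23.5 in ESC. The sequencing depth behind each column is unknown, and its part was not tested.

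By distance, the fall was clearest between 200 kb and 1 Mb. From 200 to 500 kb there were 82, 84, 50 and 61 receptor contacts in DNMT_KO, DNMT_WT, TET_KO and TET_WT EpiLC, against 141, 129, 113 and 133 in ESC, a ratio of 0.537 without overlap (exact permutation p = 0.0286). All other baits had 0.998 times as many contacts of that length in EpiLC as in ESC (exact permutation p = 1), with 0.982 to 1.02 when 1 line was left out. From 500 kb to 1 Mb the receptor ratio was 0.680 (exact permutation p = 0.0286), against 1.07 for all other baits (exact permutation p = 0.543). Under 200 kb there were 53, 45, 33 and 22 receptor contacts in EpiLC, against 71, 72, 42 and 47 in ESC. The ratio there was 0.659 and EpiLC was lower in 4 of 4 lines, but the columns overlapped (exact permutation p = 0.143). At 1 Mb and over the columns overlapped widely, with 38, 31, 52 and 51 contacts in EpiLC, against 39, 35, 103 and 38 in ESC (exact permutation p = 0.8), and without TET_KO the means were 40 in EpiLC and 37.3 in ESC. All other baits had 1.85 times as many contacts of 1 to 10 Mb in EpiLC as in ESC (exact permutation p = 0.0286). Contacts that left their receptor cluster numbered 8, 16, 40 and 33 in EpiLC, against 17, 24, 41 and 29 in ESC (exact permutation p = 0.714).

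Cluster 2, with 164 of the 214 baits and 947 of the 1345 listed contacts, held most of the difference in number. Its mean difference was -105.5, against -140 for all receptor baits, a part much like its part of the baits. It had 228, 216, 133 and 140 contacts in DNMT_KO, DNMT_WT, TET_KO and TET_WT EpiLC, against 322, 263, 301 and 253 in ESC, a ratio of 0.629 (exact permutation p = 0.0286). Cluster 1 had 40, 38, 56 and 63 contacts in EpiLC, against 59, 82, 88 and 63 in ESC, with overlap (ratio 0.675, exact permutation p = 0.0857). Cluster 3 had 24, 24, 38 and 23 in EpiLC, against 42, 38, 40 and 32 in ESC, also with overlap (ratio 0.717, exact permutation p = 0.0857). As a share of all contacts within a chromosome, cluster 1 was lower in EpiLC in 4 of 4 lines without overlap of the columns (ratio 0.636, exact permutation p = 0.0286), and cluster 3 was lower in 4 of 4 lines with overlap (ratio 0.67, exact permutation p = 0.0571).

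Along cluster 2 the lines parted company. In the first 1 Mb, from Olfr987 to Olfr1054 (40 baits), there were 87, 89, 30 and 30 contacts in DNMT_KO, DNMT_WT, TET_KO and TET_WT EpiLC, against 101, 94, 99 and 58 in ESC. There the EpiLC columns of the DNMT lines stood close to their ESC columns, while those of the TET lines were far below theirs. From Olfr1055 to Olfr1115 (26 baits) the counts were 41, 43, 19 and 22 in EpiLC, against 58, 41, 53 and 39 in ESC, with DNMT_WT about level. From Olfr1120 to Olfr1170 (34 baits, chr2:87342684-88227048) they were 26, 20, 25 and 19 in EpiLC, against 59, 34, 47 and 61 in ESC, a ratio of 0.448 without overlap. From Olfr1176 to Olfr1233 (39 baits) and from Olfr1234 to Olfr1270 (25 baits) the columns did not overlap either, with ratios of 0.747 and 0.563. These segments were described without a test.

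**Figure D2:**
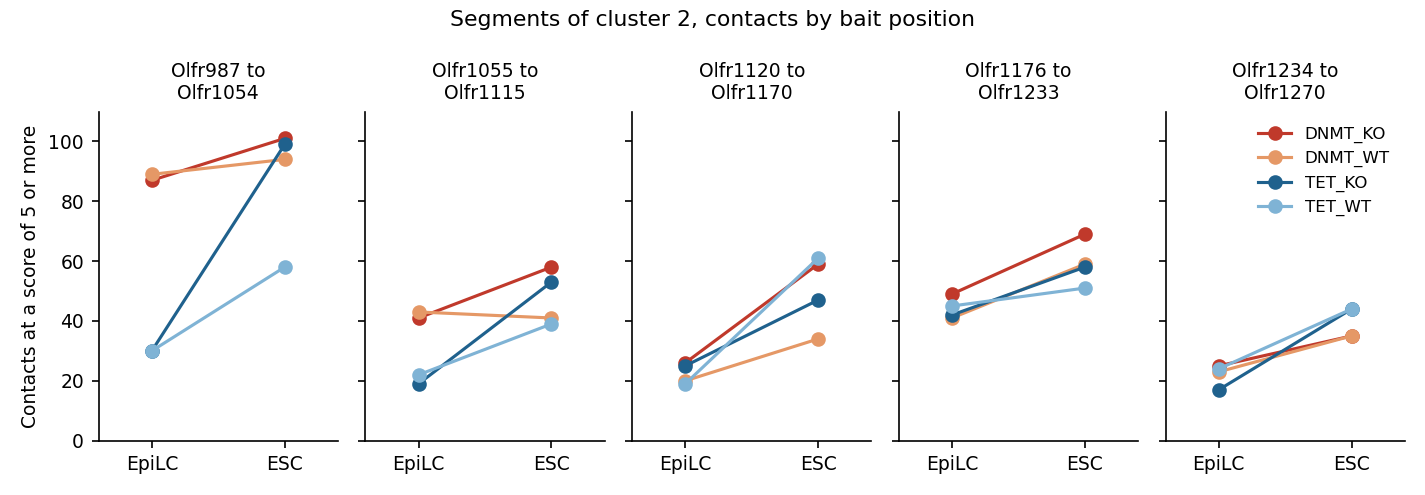
Contacts at a score of 5 or more of the baits in 5 successive segments of cluster 2, by column, with a line joining EpiLC and ESC of each cell line. In the segment from Olfr987 to Olfr1054 the EpiLC counts were 87 and 89 in the DNMT lines and 30 and 30 in the TET lines; from Olfr1120 to Olfr1170 all 4 EpiLC counts were between 19 and 26.

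Receptor contacts were seldom shared by all groups. Of the 1345 contacts, 838 (62.3%) reached a score of 5 in a single column, against 44.0% of all contacts in the table. Contacts that reached it in ESC columns but in no EpiLC column made up 646 (48.0%), against 27.5% of all contacts, and those that reached it in EpiLC columns alone made up 327 (24.3%), against 29.3%. Among receptor to receptor contacts these shares were 44.5% for ESC alone and 15.5% for EpiLC alone. All 8 columns reached 5 in 24 receptor contacts (1.78%, against 6.70% of all contacts), 23 of them between 2 receptors. Receptor baits of other chromosomes had shares between these: 55.9% of their contacts reached 5 in a single column and 3.50% in all 8. ESC columns alone held 40.2% of their contacts and EpiLC columns alone 27.5%. The highest score of any chromosome 2 receptor contact was 30.6, against 112 for receptors of other chromosomes and 1029 in the table.

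The strongest receptor to receptor contacts, by the mean asinh of the score over the 8 columns, differed little by stage. Asinh behaves like a natural logarithm for large scores, so that a doubling is about 0.69. Olfr356 and Olfr355, which lie 11.2 kb apart in cluster 1, scored 13.2, 16.6, 16.4 and 14.9 in DNMT_KO, DNMT_WT, TET_KO and TET_WT EpiLC, against 21.1, 29.1, 14.4 and 13.7 in ESC. Olfr1137 and Olfr1140, 34.1 kb apart in cluster 2, scored 8.76, 12.4, 16.2 and 13.4 in EpiLC, against 19.1, 25, 12.8 and 15.4 in ESC. Both contacts were above 8 in every column and their EpiLC and ESC ranges overlapped. Olfr1281 and Olfr1314 spanned 766 kb of cluster 3 and scored 9.67, 16.7, 12 and 15.3 in EpiLC, against 14.2, 16.9, 14.2 and 15.1 in ESC. The highest single score, 30.6, was that of Olfr1243 with Olfr1176 in TET_KO EpiLC, over 1193 kb, where the other EpiLC columns gave 3.58, 10.0 and 11.0 and the ESC columns 16.1, 11.7, 12.9 and 9.34. The list is completed by Olfr1295 with Olfr1314, Olfr1281 with Olfr1289, Olfr1076 with Olfr1052 and Olfr1009 with Olfr1052. None of these 8 contacts passed the limma test of stage, the lowest adjusted p being 0.141 for Olfr1295 with Olfr1314 (-0.49 ± 0.15).

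Bait by bait, the receptors shifted downward in EpiLC as a group. A bait's value was its mean asinh score over listed contacts, quantile normalised between columns, and 165 of the 214 receptor baits (77.1%) had the 3 contacts with a score in all columns that were required. Of the other 49, 41 had 1 or 2 such contacts and 8 had none. Contacts were listed only if they reached a score of 5 in at least 1 column. Of receptor contacts, 48.0% did so in ESC columns alone, against 27.5% of all contacts and 40.2% for receptors of other chromosomes. In EpiLC columns alone it was 24.3%, against 29.3% of all contacts and 27.5% for receptors of other chromosomes. Bait values average these same contacts, so they are not separate from the counts above, and the part of the listing was not tested. In the limma fit over all 15677 baits, with line as a block and Benjamini-Hochberg adjustment at 0.05, 18 of the 165 (10.9%) fell in EpiLC, against 5.14% of all baits, and 0 rose, against 3.73% of all baits. At an unadjusted p under 0.05, 60 were lower (36.4%, against 15.3% of all baits) and 0 higher (against 12.3%). Of the 439 tested receptor baits of other chromosomes, 8.43% fell and 2.05% rose past the threshold. Unadjusted, 30.3% of those were lower and 5.01% higher. The median difference of the 165, EpiLC minus ESC, was -0.31 (interquartile range -0.50 to -0.15), against -0.01 for all baits, -0.19 for the receptors of other chromosomes and -0.04 for the other baits of chromosome 2. Leaving out 1 line left 1 fall without DNMT_KO, 10 without DNMT_WT, 6 without TET_KO and 6 without TET_WT. The share of all baits that fell in those fits is not given here.

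The downward shift did not rest on a few receptors. The difference was negative for 143 of the 165 (86.7%), against 51.8% of all baits. It was negative in all 4 lines for 61 (37.0%), against 18.3% of all baits, and positive in all 4 for 0. All EpiLC columns lay below all ESC columns for 27 (16.4%), against 7.48%, and above them for 0, against 6.08%. Receptor baits of other chromosomes lay in between: 77.4% had a negative difference, and 30.8% a negative one in all 4 lines. Their EpiLC columns lay below all ESC columns for 12.3% and above them for 2.51%. For the 165, the median within a line was -0.31 in DNMT_KO, -0.13 in DNMT_WT, -0.39 in TET_KO and -0.40 in TET_WT. By cluster it was -0.31, -0.30 and -0.31, with 3 of 24 tested baits past the threshold in cluster 1, 13 of 120 in cluster 2 and 2 of 21 in cluster 3. The largest differences upward were those of Olfr1136 (0.53 ± 0.28 SE, limma adjusted p = 0.234) and Olfr1258 (0.38 ± 0.22 SE, limma adjusted p = 0.283), named after their values were seen.

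**Figure D3:**
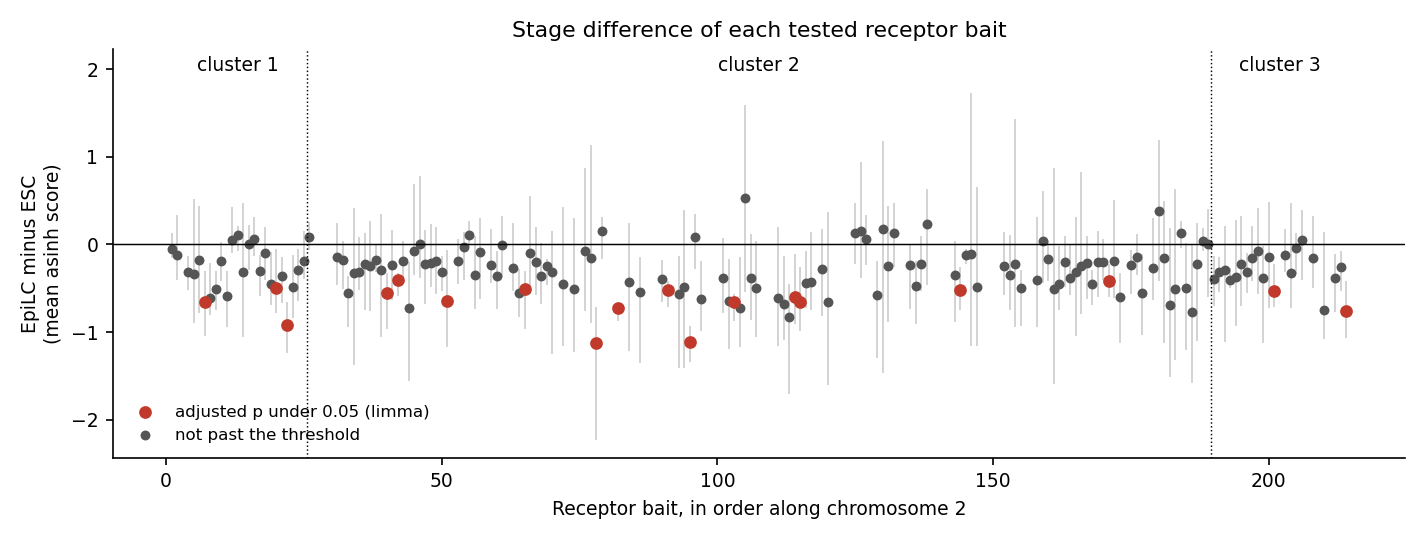
Difference in bait value, EpiLC minus ESC, on the asinh scale for each of the 165 tested receptor baits in their order along chromosome 2; red points had a limma adjusted p under 0.05, grey lines span the lowest to the highest difference of the 4 lines, and dotted lines part the clusters. The 18 red points lie below 0, and 143 of the 165 points do.

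The 10 receptors with the largest falls came from all 3 clusters. Olfr1123 (chr2:87408474-87418795) had values of 1.09, 1.49, 0.91 and 1.56 in DNMT_KO, DNMT_WT, TET_KO and TET_WT EpiLC, against 2.44, 2.42, 2.11 and 2.54 in ESC. Its 4 lines moved alike, and the difference was -1.11 ± 0.14 (SE, limma adjusted p = 0.00168). Its call held without each line in turn and in the other 7 alternatives in which it was past the filters and scored by asinh. It had too few contacts to be fitted with at least 10 complete contacts or without contacts between receptors, and no receptor was past the threshold when baits were scored by their number of contacts at 5 or more. Olfr1097 (chr2:86889957-86901070) had 0.64, 0.62, 0.49 and 0.21 in EpiLC, against 1.42, 1.33, 1.24 and 2.45 in ESC. TET_WT stood apart in ESC, and the difference was -1.12 ± 0.29 (SE, limma adjusted p = 0.0272). Olfr362 in cluster 1 (chr2:37104316-37113121) had 0.38, 1.00, 0.84 and 0.44 in EpiLC, against 1.42, 1.75, 1.5 and 1.68 in ESC, a difference of -0.92 ± 0.24 (SE, limma adjusted p = 0.0274). Olfr1318, the last bait of cluster 3 (chr2:112154690-112155937), had 0.75, 1.2, 1.18 and 0.97 in EpiLC, against 1.6, 1.88, 2.25 and 1.38 in ESC, a difference of -0.76 ± 0.20 (SE, limma adjusted p = 0.0299). In each of these 4 receptors the EpiLC and ESC columns were apart. Calls other than that of Olfr1123 depended on the lines used. With 1 line left out, Olfr1097 and Olfr1318 kept theirs in 1 of 4 fits and Olfr362 in 0. These values rest on few contacts with a score in all columns: 3 for Olfr1097, 5 for Olfr362 and 4 for Olfr1318. Olfr1097 and Olfr362 had 0 contacts at 5 or more in every EpiLC column, so all their contacts were listed through ESC alone. Their p-values do not allow for that selection, whose part in the falls was not tested.

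Tighter columns were found for Olfr1102 and Olfr1134. Olfr1102 (chr2:87000387-87006641) had 1.13, 1.09, 1.21 and 1.23 in EpiLC of these lines, against 1.79, 1.77, 1.92 and 2.11 in ESC, a difference of -0.73 ± 0.17 (SE, limma adjusted p = 0.0211). Olfr1134 (chr2:87658093-87661533) had 1.53, 1.35, 1.42 and 1.36 in EpiLC, against 2.09, 2.22, 1.99 and 2.01 in ESC, a difference of -0.66 ± 0.14 (SE, limma adjusted p = 0.0153). Neighbours Olfr1151 and Olfr1152 both fell, by 0.60 and 0.65, with limma adjusted p of 0.0301 and 0.0154, and the columns of Olfr1151 overlapped. The list is completed by Olfr345 in cluster 1 (-0.65 ± 0.18 SE, limma adjusted p = 0.0327) and Olfr1032 (-0.65 ± 0.15 SE, limma adjusted p = 0.0209), whose columns overlapped. With 1 line left out, Olfr1134 and Olfr1152 kept their call in 2 of 4 fits. Olfr1102, Olfr1151 and Olfr1032 kept it in 1, and Olfr345 in 0. Olfr345 rests on 4 contacts and had 0 at 5 or more in every EpiLC column, so its contacts too were listed through ESC alone. The other 8 that fell were Olfr1016, Olfr1295, Olfr1115, Olfr1209, Olfr1054, Olfr358, Olfr1243 and Olfr1019, with differences between -0.56 and -0.41. Among them, Olfr358 also had 0 contacts at 5 or more in every EpiLC column.

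Single contacts that fell were all between receptors of cluster 2. Of 1248 receptor contacts with a score in every column, 7 had a limma adjusted p under 0.05 and fell in EpiLC, against 0.109% of all 244865 contacts within a chromosome, and 0 rose, against 0.204%. At an unadjusted p under 0.05, 200 were lower (16%, against 8.28% of all contacts) and 25 higher (2.00%, against 8.32%). All 7 were among the 511 receptor to receptor contacts. Of the 573 listed contacts of that kind, cluster 2 holds 489, so most falls would lie there by its size alone. Of the 737 contacts with other fragments, 0 passed the limma threshold, with 85 lower (11.5%) and 17 higher (2.31%) at an unadjusted p under 0.05. Leaving out any 1 of the 4 lines left 0 past the threshold. All tested contacts were listed for a score of 5 or more in at least 1 column, and the part of that listing was not tested. The columns did not overlap, with EpiLC lower, for 91 receptor contacts (7.29%, against 4.79% of all contacts), and with EpiLC higher for 5 (0.40%, against 3.94%).

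The largest fall was the contact of Olfr1115 with Olfr1135 over 424 kb, whose promoter windows are the first pair printed above. It scored 1.81, 0.81, 0.0128 and 0.757 in DNMT_KO, DNMT_WT, TET_KO and TET_WT EpiLC, against 12.1, 7.01, 3.68 and 5.67 in ESC. Every EpiLC score was below every ESC score, and the difference was -1.96 ± 0.34 on the asinh scale (SE, limma adjusted p = 0.0267). Olfr1243 with Olfr1214 over 545 kb, the other printed pair, scored 2.54, 0.967, 0 and 1.17 in EpiLC, against 3.94, 6.14, 8.94 and 8.46 in ESC, a difference of -1.78 ± 0.37 (SE, limma adjusted p = 0.0471). Olfr1032 with Olfr1054 over 325 kb scored 1.51, 6.18, 2.12 and 0.657 in EpiLC, against 9.77, 8.37, 12.5 and 7.06 in ESC, a difference of -1.54 ± 0.27 (SE, limma adjusted p = 0.0295). Only DNMT_WT stayed above 5 in EpiLC there.

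Olfr1123, the bait with the lowest adjusted p, was in 2 of the 7 contacts. With Olfr1140 over 333 kb it scored 2.15, 2.89, 0.935 and 1.88 in EpiLC of these lines, against 9.21, 5.22, 6.06 and 15.8 in ESC, a difference of -1.52 ± 0.26 (SE, limma adjusted p = 0.0273). With Olfr1132 over 223 kb it scored 2.35, 2.03, 1.28 and 4.66 in EpiLC, against 11.8, 10.9, 3.51 and 12.1 in ESC, and only TET_KO ESC lay within the EpiLC range (-1.32 ± 0.21 SE, limma adjusted p = 0.0183). Olfr1180 with Olfr1228 over 837 kb scored 3.15, 2.69, 3.21 and 1.91 in EpiLC, against 9.90, 6.27, 10.3 and 5.57 in ESC (-1.08 ± 0.20 SE, limma adjusted p = 0.0336). Olfr1115 with Olfr1132 over 388 kb had the smallest fall of the 7 (-0.97 ± 0.20 SE, limma adjusted p = 0.0494), and its columns overlapped. Olfr1132, Olfr1115 and Olfr1123 each took part in 2 of the 7 contacts, so these contacts share baits and fragments. Of the 7, only Olfr1032 with Olfr1054 (6.18) and Olfr1115 with Olfr1132 (6.05) reached 5 in an EpiLC column, DNMT_WT in both cases. The others were listed through ESC columns alone. Their p-values and sizes do not allow for that selection, whose part was not tested.

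**Figure D4:**
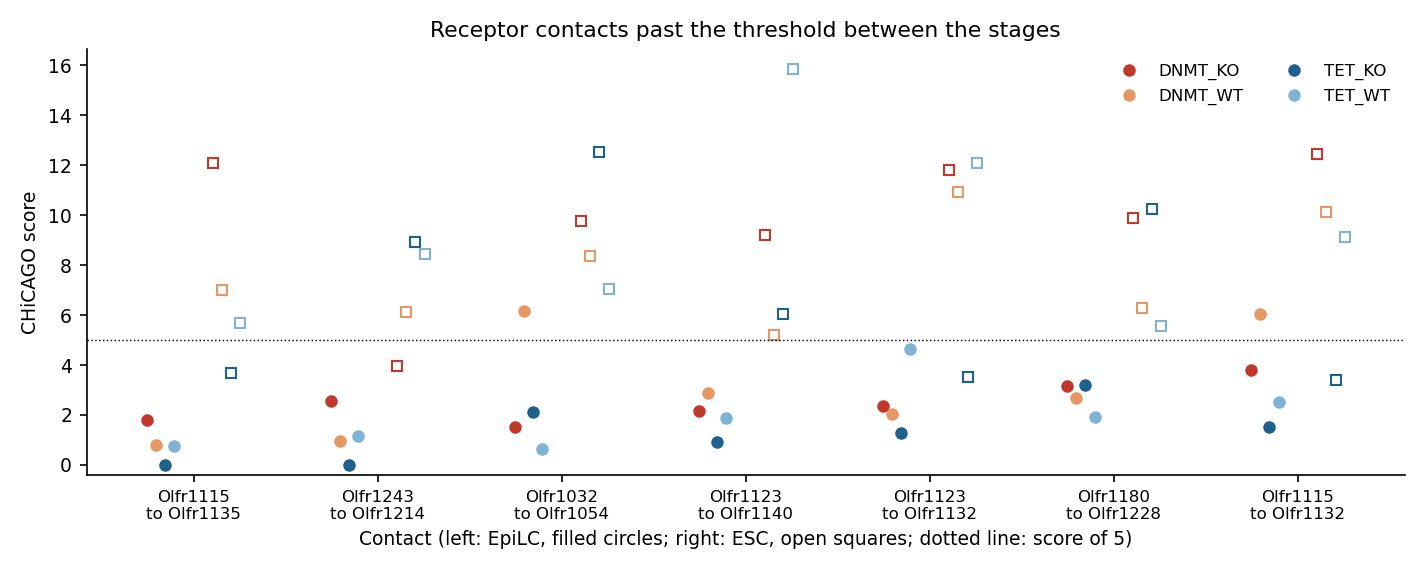
Scores in each column of the 7 receptor to receptor contacts with a limma adjusted p under 0.05, with EpiLC as filled circles on the left and ESC as open squares on the right of each contact, coloured by cell line, and a dotted line at a score of 5. For Olfr1115 with Olfr1135 the EpiLC scores were 0.0128 to 1.81 and the ESC scores 3.68 to 12.1.

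The baits with most contacts listed from their own end had few of those with other receptors. They were Olfr368 (71 contacts), Olfr338 (23), Olfr348 (20), Olfr366 (19) and Olfr1008 (17), with 2, 0, 0, 0 and 1 contacts to receptors in that order. Most receptor pairs were listed from 1 end only. Counted from either end, Olfr1008 had 23 receptor partners, Olfr348 had 10 and Olfr368 had 2. Olfr368 closes cluster 1 (chr2:37328633-37334021) and had 9, 9, 23 and 26 contacts at 5 or more in DNMT_KO, DNMT_WT, TET_KO and TET_WT EpiLC, against 17, 23, 32 and 13 in ESC, with wide overlap. TET_WT was the line in which Olfr368 had more in EpiLC. The stage difference of the bait value was -0.19 ± 0.13 for Olfr368, and limma adjusted p was between 0.27 and 0.835 for these 5 baits.

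A few receptor fragments drew many receptors. Of 572 receptor pairs, 1 was listed from both ends and the rest from either of them, so partners were also counted from either end. On that count, made after the values were seen, Olfr1176 (chr2:88339045-88341308) had 56 receptor partners, Olfr1052 had 32 and Olfr1054 had 27, against a median of 4 over the 172 receptor fragments with any. Olfr1176 had 16, 16, 19 and 17 partners at a score of 5 or more in DNMT_KO, DNMT_WT, TET_KO and TET_WT EpiLC, against 30, 18, 33 and 27 in ESC. Its 4 EpiLC columns were close together, and DNMT_WT ESC lay among them. The mean was 11.2 in EpiLC and 17.8 in ESC for Olfr1052, and 7.5 in EpiLC and 13 in ESC for Olfr1054. Of the 172 fragments, 133 had fewer partners on average in EpiLC, 21 had more and 18 had equal numbers.

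Some fragments without a bait were shared by many receptors, also noted after the values were seen. The fragment at chr2:85729268-85730691, between Olfr1009 and Olfr1010 and 6.92 kb from the nearest annotated gene, was contacted by 31 receptor baits, among them Olfr1052 and Olfr1054. At a score of 5 or more it had 10, 11, 11 and 8 of them in EpiLC of these lines, against 10, 13, 17 and 10 in ESC, a smaller gap than for receptor contacts at large. Fragments beside it had wider gaps: averaged over lines, chr2:85730692-85731608, contacted by 22 receptor baits, had 3.5 in EpiLC and 6.25 in ESC, and chr2:85726882-85729251, contacted by 16, had 1.75 in EpiLC and 5.5 in ESC. A fragment at chr2:88356807-88358814, between Olfr1177-ps and Olfr1178, was contacted by 20 receptor baits, and one at chr2:37334022-37335163, between Olfr368 and Pdcl, by 12. The fragment near Olfr1178 had a mean of 3 in EpiLC and 4 in ESC, and that near Olfr368 a mean of 4.5 in EpiLC and 4.75 in ESC. Not all shared fragments were lower in EpiLC. The one at chr2:86485681-86486317, contacted by 14 receptor baits, had 3.25 at both stages. Beside the fragment near Olfr1178, chr2:88355908-88356806, also contacted by 14, had 3 in EpiLC and 1.75 in ESC. Higher in EpiLC too were chr2:85710065-85712862 (2.25, against 1.5 in ESC) and chr2:37213635-37214269 (2.5, against 0.75 in ESC).

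At a single stage, loss of the DNA methyltransferases or of the Tet enzymes could be described but not tested, with 1 column per group. Past a doubling of the bait value (0.69 on the asinh scale), DNMT_KO minus DNMT_WT was higher for 5 and lower for 5 of the 165 receptors in EpiLC (3.03% each way, against 1.35% higher and 1.15% lower of all baits). In ESC it was higher for 13 (7.88%, against 2.09%) and lower for 6 (3.64%, against 2.14%). The medians were -0.04 in EpiLC and 0.19 in ESC. TET_KO minus TET_WT was higher for 5 and lower for 10 receptors in EpiLC (3.03% and 6.06%, against 3.6% and 2.54%), with a median of -0.05. In ESC it was higher for 11 and lower for 12 (6.67% and 7.27%, against 3.37% and 2.25%), with a median of 0.03. Receptor values rest on fewer contacts than most, and their stage differences had a median SE of 0.18, against 0.13 for all baits, and the part of that scatter in the shares past a doubling was not tested.

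Averaged over both stages, no receptor was past the threshold between lines. This contrast came from the same limma fit of stage plus line and was added after seeing the data. Each line has 1 column per stage, so it compares lines and not genotypes. In DNMT_KO minus DNMT_WT, 0 of 165 receptors were higher and 0 lower by limma adjusted p (against 0% of all baits each way), with 7 higher and 3 lower at an unadjusted p under 0.05 (against 1.66% and 1.65%). In TET_KO minus TET_WT, 0 were higher and 0 lower by limma (against 0.134% and 0.0765%), with 4 higher and 9 lower at an unadjusted p under 0.05 (against 8.36% and 6.56%).

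The sign of the difference was the same at both stages for 81 of 165 receptors in DNMT_KO minus DNMT_WT (49.1%, against 45.9% of all baits), of which 0 were past a doubling at both. It was the same for 89 in TET_KO minus TET_WT (53.9%, against 64.4%), of which 2 were. Among the 33 receptors with at least 10 listed contacts, 17 kept their sign in each comparison. The largest of these was Olfr1314 in cluster 3, with 1.76 in TET_KO and 0.96 in TET_WT EpiLC, and 1.87 in TET_KO and 1.13 in TET_WT ESC. Next in TET_KO minus TET_WT came Olfr1006, Olfr1012, Olfr1209 and Olfr1178, with mean differences of both stages from 0.44 to 0.28. Olfr1123, whose value was lower in TET_KO at both stages, had 0.91 in TET_KO and 1.56 in TET_WT EpiLC, and 2.11 in TET_KO and 2.54 in TET_WT ESC. It was followed downward by Olfr32 (-0.40), Olfr1233 (-0.39), Olfr1229 (-0.23) and Olfr366 (-0.17).

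In DNMT_KO minus DNMT_WT the mean differences were smaller. Olfr1270 at the end of cluster 2 had 1.62 in DNMT_KO and 1.30 in DNMT_WT EpiLC, and 1.57 in DNMT_KO and 1.12 in DNMT_WT ESC. Olfr1209 (0.32), Olfr1009 (0.29), Olfr1115 (0.25) and Olfr1232 (0.24) were also higher in DNMT_KO. Olfr347 in cluster 1 had 1.39 in DNMT_KO and 1.49 in DNMT_WT EpiLC, and 1.70 in DNMT_KO and 2.05 in DNMT_WT ESC. Olfr1076 (-0.20), Olfr1012 (-0.19), Olfr1178 (-0.16) and Olfr338 (-0.10) were also lower in DNMT_KO. Olfr1209 was higher in both knock-outs than in the parental lines, at both stages.

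The parental lines were compared in the same way, 1 column with 1 column at each stage and so without a test. Past a doubling of the bait value, TET_WT minus DNMT_WT was lower for 25 (15.2%, against 2.58% of all baits) and higher for 8 (4.85%, against 2.3%) of the 165 receptors in EpiLC, with a median of -0.23. In ESC it was lower for 7 (4.24%, against 1.95%) and higher for 16 (9.70%, against 2.16%), with a median of 0.01. In EpiLC without scaling between columns, it was lower for 16 and higher for 11 (9.70% and 6.67%, against 1.77% and 2.70%). Among the 28 receptors with at least 10 complete contacts it was lower for 4 and higher for 0 in EpiLC (14.3% and 0%, against 0.984% and 0.703%). Over both stages, limma called 0 receptors higher and 0 lower (against 0% and 0.0191% of all baits), with 5 higher and 12 lower at an unadjusted p under 0.05 (against 3.65% and 4.33%).

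**Figure D5:**
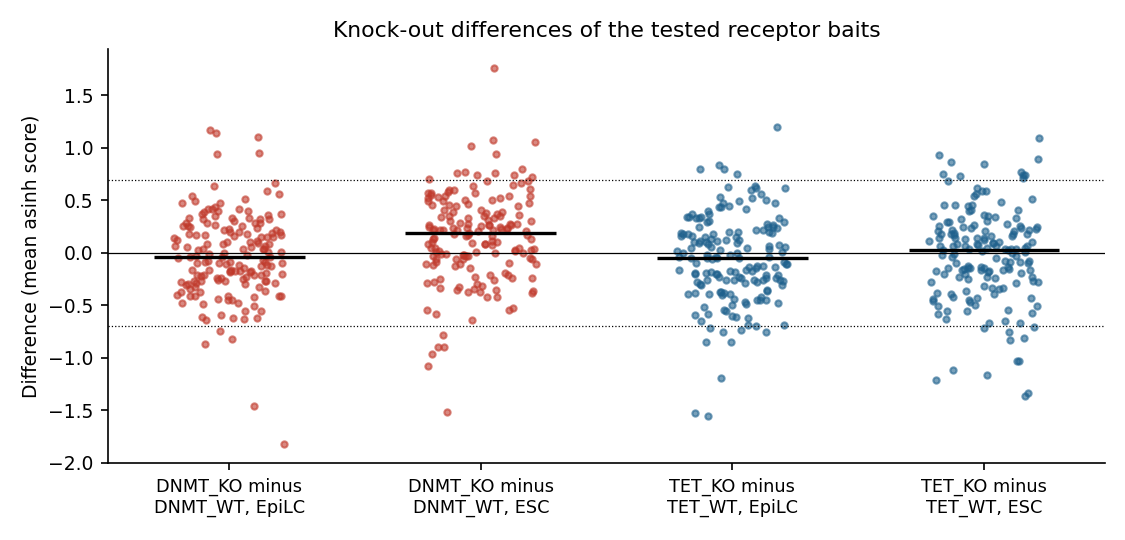
Difference in bait value on the asinh scale, knock-out minus parental line, for the DNMT and TET lines in EpiLC and ESC; each point is 1 of the 165 tested receptor baits, black bars are medians and dotted lines mark a doubling (0.69). The medians were -0.04 in EpiLC and 0.19 in ESC for the DNMT lines, and -0.05 in EpiLC and 0.03 in ESC for the TET lines.

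Receptors with few and with more CpG had similar medians. The median stage difference was -0.31 for the 53 tested receptors with no CpG in the window, -0.34 for the 65 with 1 or 2 and -0.31 for the 13 with 3 or more. Past the limma threshold were 4 of 53, 8 of 65 and 3 of 13, all falls, against 5.14% of all baits that fell. These shares rise with CpG, but the last group is small and the difference between the groups was not tested.

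Genes that work with the receptors had a median close to 0. Of a list of 24 genes of odorant signalling, receptor transport and receptor choice, 16 had enough contacts to be tested, and in the limma fit 0 rose and 0 fell, with 3 higher and 2 lower at an unadjusted p under 0.05 (18.8% and 12.5%, against the 12.3% and 15.3% given above). Their median difference was 0.03, within a range from -0.49 to 0.54. Adcy3, the adenylate cyclase of olfactory cilia, had bait values of 2.31, 2.15, 2.47 and 2.22 in DNMT_KO, DNMT_WT, TET_KO and TET_WT EpiLC, against 2.02, 2.03, 2.03 and 1.80 in ESC (0.32 ± 0.10 SE, limma adjusted p = 0.0508). Cnga2, a subunit of the olfactory cyclic nucleotide-gated channel, differed by -0.49 ± 0.21 (SE, limma adjusted p = 0.137), and Reep1, which helps receptors reach the cell surface, by 0.54 ± 0.18 (SE, limma adjusted p = 0.0628). Lhx2, the homeodomain factor of receptor choice, lies on chromosome 2 and differed by -0.05 ± 0.12 (SE, limma adjusted p = 0.825).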

How the data were processed

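Per the labels, chromatin of mouse ESC and EpiLC was cut with HindIII and promoter fragments were captured. The deposited values are CHiCAGO scores made by the authors, 1 per contact in each of 8 columns (4 lines at 2 stages) over 260860 contacts. Per the submitters' processing notes, reads were trimmed with Trim Galore 0.6.5 (cutadapt 2.3) and the build was GRCm38. How replicates were combined, the aligner and CHiCAGO's version are not stated there. No column belongs to a single sample, depth is unknown, and from the values each contact reaches 5 in at least 1 column.

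Bait values (mean asinh score, at least 3 contacts with a score in all columns, quantile normalised) and single contacts within a chromosome were fitted with limma 3.58.1 in R 4.3.3 (stage plus line, eBayes with a trend), with Benjamini-Hochberg adjustment over all baits or contacts at 0.05. Contacts lacking a score in some column (7.21% of receptor contacts, 5.88% of all) stayed out of the fits. Counts at 5 or more were compared by exact two-sided permutation (scipy 1.17.1). The fit was tested on simulated data. Named were the baits past the threshold with the 10 largest falls and rises, the 8 contacts likewise, the 8 strongest receptor pairs, the 5 baits with most contacts, and the 5 largest knock-out differences each way among baits with at least 10 contacts and the same sign at both stages. Members, lists and rules were chosen with earlier results of these data known. Contrasts of lines over both stages came from the bait fit and were added after seeing the data. Alternatives covered scaling, filters, contact classes, score thresholds, left-out lines and the line block. Promoter windows are from RefSeq GRCm38.p6.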

Additional observations from a re-analysis of the deposited data

Results flagged for a closer look

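In 42 groups of 4 columns that were checked for a column far from the others, 4 had one, where chance gives about 1 in 20. Contacts of receptor baits with other fragments numbered 225 in TET_KO ESC, against 145 to 155 in the other ESC columns. Receptor contacts of 1 Mb and over numbered 103 in TET_KO ESC, against 35 to 39 in the other ESC columns, and 91 of the 103 belonged to baits of cluster 2 and 69 ended on fragments that are no receptor. Cluster 3 had 38 contacts at 5 or more in TET_KO EpiLC, against 23 or 24 in the other EpiLC columns. The bait value of Olfr1097 was 2.45 in TET_WT ESC, against 1.24 to 1.42 in the other ESC columns.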

How the results depend on the processing

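The count of 18 of 165 receptor baits that fell was 1 of 206 with no minimum number of contacts, 8 of 28 with at least 10 listed, 6 of 88 without contacts between 2 receptors and 23 of 135 within 1 Mb, with median differences of -0.29, -0.27, -0.27 and -0.32 in that order, against -0.31. Of the same 165 it was 1 in the wild-type lines only and 8 with no line block. It was 28 of 174 with bait pairs counted at both ends, an alternative chosen after seeing the data. When a bait was scored by its number of contacts at 5 or more, limma called 0, with 14 lower and 0 higher at an unadjusted p under 0.05. Leaving out 1 line gave 1 to 10. In every one of these settings 0 receptor baits rose. The share of all baits called in each setting is not given here, so these counts describe the receptors alone. The 7 single contacts became 2 with no line block, and limma called 0 in the wild-type lines only (121 lower at an unadjusted p under 0.05) and 0 without any 1 line (156 to 208 lower). Without 1 line, the difference in receptor to receptor contacts, -88.5, was between -93.3 and -85, and that in all receptor contacts, -140, a comparison added after seeing the data, was between -151.7 and -119.3. The exact permutation p was then 0.1, the smallest that 3 against 3 allows. With at least 10 listed contacts, 0 of 28 receptors were past a doubling in DNMT_KO minus DNMT_WT in EpiLC (10 of 165 before). In ESC it was 0 of 28 (19 of 165 before). Of all baits in that setting, 0.105% were higher and 0.176% lower in EpiLC, and 0.797% and 0.515% in ESC. Within 1 Mb it was 12 of 135 receptors in ESC, against 1.86% higher and 1.83% lower of all baits. In TET_KO minus TET_WT, 2 of 28 receptors with at least 10 listed contacts were past it in EpiLC (15 of 165 before). In ESC it was 1 of 28 (23 of 165 before). Of all baits in that setting, 1.75% were higher and 1.04% lower in EpiLC, and 1.79% and 0.797% in ESC. Without contacts between 2 receptors it was 7 of 88 in EpiLC, against 3.62% higher and 2.51% lower of all baits. Within 1 Mb it was 12 of 135 in ESC, against 2.57% and 2.07%. TET_WT minus DNMT_WT was added after seeing the data. There, 4 of 28 receptors with at least 10 listed contacts were past a doubling in EpiLC (33 of 165 before). In ESC it was 1 of 28 (23 of 165 before). Of all baits in that setting, 0.703% were higher and 0.984% lower in EpiLC, and 0.703% and 0.527% in ESC. Without contacts between 2 receptors it was 21 of 88 in EpiLC, against 2.28% higher and 2.54% lower of all baits. Within 1 Mb it was 13 of 135 in ESC, against 1.67% and 1.85%. The direction of TET_KO minus TET_WT was not settled: in ESC 11 were higher and 12 lower (median 0.03), with 14 higher and 9 lower without scaling and 2 higher and 10 lower within 1 Mb (median -0.09), and in EpiLC 5 were higher and 10 lower, with 4 higher and 3 lower without contacts between 2 receptors. The ESC median of TET_WT minus DNMT_WT, 0.01, was -0.09 with at least 10 listed contacts. The contrasts of lines over both stages gave 0 receptors past the limma threshold in every alternative in which they were run, and the median of TET_KO minus TET_WT, -0.04, was 0.01 without scaling and 0.05 with at least 10 listed contacts. The stage results of this section, for receptor baits, single contacts and counts of receptor contacts, kept their direction. By distance, however, the mean difference in receptor contacts of 1 Mb and over, -10.75, became 2.67 without TET_KO. Of the 111 values of the named baits under an alternative, 56 kept their call. The cause of these changes was not tested. No paired analysis was possible because the columns carry no replicate numbers, as far as pairs of replicates are concerned. Stages could be paired by cell line, and the line block of the limma fit is that pairing. The exact permutations of counts did not use it, so their p of 0.0286 treats the columns as unpaired. Counts were not tested within lines.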
